A study of Zea mays with 21 samples.

Results

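The 150 gene IDs described here were those whose transcripts stood highest in wild-type (WT) maize leaf at the V9 stage over WT leaf at the V4 stage, out of 50142 IDs in the count table. Levels are given in CPM, the count of an ID divided by its library total and multiplied by 1000000. For each ID the lowest CPM of the 3 WT V9 libraries was set over the highest CPM of the 3 WT V4 libraries, with 1 CPM added to each, and the 150 IDs of highest log2 ratio were taken as members. The members were thus chosen by their WT leaf values, and the 6 WT leaf libraries are described with no test. The zb10 leaf libraries and the endosperm libraries did not enter the choice, and all tests were made on them.

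Transcripts were counted in WT maize and in zb10, a mutant with zebra-striped leaves that the series title ties to loss of the plastid terminal oxidase ZmPTOX. The 21 libraries formed 7 groups of 3. At the V4 stage these were WT leaf and the green section and the white section of zb10 leaf. The others were leaf of both genotypes at V9, and WT and zb10 endosperm 16 days after pollination. The sample titles give V4 and V9 but no leaf number. No group carried a further allele or treatment per the labels, the V9 labels name no leaf section, and the labels do not say whether V4 and V9 leaves were grown or harvested together. Stage and any such difference cannot be told apart.

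As background, the plastid terminal oxidase passes electrons from plastoquinol to oxygen and so supplies the oxidised plastoquinone that carotenoid desaturation needs; cells without it bleach where carotenoids no longer protect their chloroplasts. Early maize leaves are juvenile, with wax and without the specialised hairs of later leaves, and later leaves are adult, so leaves of different number differ in many transcripts. Endosperm is the starch- and protein-storing tissue of the kernel and has no photosynthetic chloroplasts. The stated purpose of the study concerned carotenoid and alternative oxidase genes. None of the 150 member IDs, and 0 of 50142 in all, matched the reference gene table used here, so genes are given by ID without name, role or sequence.

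Library totals ran from 28237880 to 53092962 counts, except WT V9 replicate 1 with 123050963. The third white-section library stood apart in that 11.9% of its counts fell on its 50 most abundant IDs, where replicates 1 and 2 had 17.3% and 17.4%. As a look at the labelled tissues, the 100 IDs most abundant over the WT and green V4 libraries were taken, members left out. Their median level was 998 to 2063 CPM over the leaf libraries and 0.314 to 2.38 CPM over the endosperm libraries. In the WT and green V4 libraries that level was fixed by the choice, so those libraries are not checked by it. Members comprised 139 IDs of reference style and 11 newGene loci, or 7.33% of the set against 21.6% of the table. CPM is not corrected for transcript length, so levels are compared between samples and not between genes. These are bulk samples, in which a change in the number of cells of a type and a change in RNA per cell cannot be told apart.

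In WT leaf the members held 0.237% ± 0.0179 (SD, n = 3) of all counts at V4 and 4.95% ± 0.297 (SD, n = 3) at V9, by choice. In zb10, which did not choose them, they held 0.295% ± 0.0111 (SD, n = 3) of counts in the green section, 0.464% ± 0.0623 (SD, n = 3) in the white section and 4.70% ± 0.0440 (SD, n = 3) in V9 leaf. The zb10 V9 shares lay within the range of the WT V9 libraries, and both V4 sections lay above WT V4 in every library. The rule took members with low WT V4 and high WT V9 values. Both comparisons with WT are therefore biased by the choice and were not tested. The median member stood at 2.90 to 3.04 CPM in WT V4 and 78.3 to 95.7 CPM in WT V9. It stood at 3.59 to 3.70 CPM in green, 4.45 to 4.82 CPM in white and 79.9 to 87.5 CPM in zb10 V9. No member was at 0 counts in any zb10 V9 library, nor in WT V9, where the rule allowed none. In each V4 library 7 to 17 members were at 0, and in each endosperm library 15 to 45. Low WT V4 values were also chosen by the rule.

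**Figure D1:**
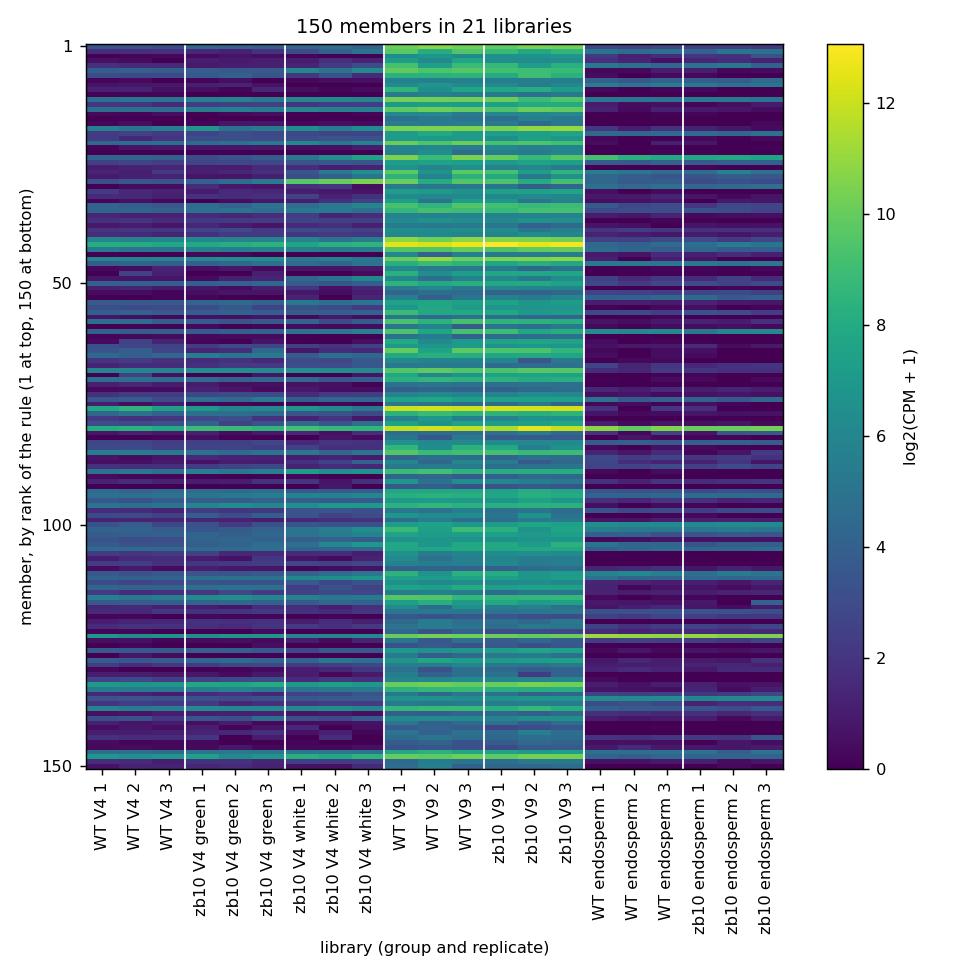
Level of the 150 members, as log2(CPM + 1), in each of the 21 libraries, with members in rows ordered by the rule (rank 1 at the top) and libraries in columns by group. The 6 V9 columns are bright throughout, with a median member of 78.3 to 95.7 CPM, while the V4 and endosperm columns are dark except for a minority of members.

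The member ranked first was Zm00001d049543, with a rule value of 6.76 (log2). Its level was 9.39, 8.15 and 6.70 CPM in WT V4 and 1126, 1639.5 and 1143 CPM in WT V9. At the threshold, the next to last member, Zm00001d021532, had a rule value of 2.82 and Zm00001d010440 at rank 150 had 2.79. The first IDs outside the set, Zea_mays_newGene_8599 and Zm00001d012591, both had 2.79.

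Whether the members also rose with leaf stage in the mutant was asked by comparing zb10 V9 leaf with the green section of zb10 V4 leaf. All 150 members were higher in V9 and 0 lower, against 21.5% of the 27361 IDs tested called higher and 21.9% called lower (edgeR quasi-likelihood test, Benjamini-Hochberg adjusted p under 0.05). The lowest log2 fold change among members was 2.15 and the median 4.34, beside a median of 0.02 over all IDs tested. The 3 V9 libraries lay above all 3 green libraries in 150 of 150 members, as they did in 25.3% of IDs. Because members are high in V9 by choice they could pass the low-count filter through that group alone. On the V4 sections only, 129 of 150 would have passed it, and the others had to be higher in V9.

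Zm00001d049543 stood at 19.0, 16.3 and 13.6 CPM in green and 887, 1392 and 1196 CPM in zb10 V9. The groups were far apart, with a log2 fold change of 6.08 (SE 0.29, adjusted p 4.46e-07) by edgeR. Zm00001d038806, ranked second by the rule, stood at 1.81, 1.27 and 2.75 CPM in green and 442, 229 and 386 CPM in V9, a log2 fold change of 7.44 (SE 0.56, adjusted p 5.25e-06) by edgeR. Its V9 libraries lay far above the green ones, with V9 replicate 2 the lowest of them.

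Some members were absent from the V4 sections at this depth. Zm00001d014083 and Zm00001d043461 had 0 counts in all 9 V4 libraries, WT included. In zb10 V9 the former stood at 25.2, 53.1 and 36.2 CPM and the latter at 43.7, 41.5 and 55.9 CPM. With a floor of 3 counts over the green group, they were at least 1254-fold and at least 1558-fold higher in V9. Zm00001d040764 had 0 counts in both zb10 sections but 0.0804, 0.169 and 0.141 CPM in WT V4, and was at least 1185-fold higher in zb10 V9 than in green. These bounds cover counting error only.

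The members of highest level in zb10 V9 were also present at V4. Zm00001d016070 stood at 247, 280.3 and 343 CPM in green, 197, 310.1 and 364 CPM in white and 8516, 6165 and 7223 CPM in V9. Its V9 libraries lay above every V4 library, with a log2 fold change over green of 4.59 (SE 0.27, adjusted p 1.47e-06) by edgeR. It alone held 13.0% to 18.0% of the members' counts in the zb10 V9 libraries. Zm00001d023376 stood at 498, 448 and 375 CPM in green and 2822, 6025 and 3677 CPM in V9, with replicate 2 the highest and a log2 fold change of 3.18 (SE 0.34, adjusted p 5.33e-05). Zm00001d002678, Zm00001d003559 and Zm00001d002690 had means of 1837, 1557 and 1408 CPM in zb10 V9, with log2 fold changes over green of 4.83, 4.13 and 4.51.

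Zm00001d022630 differed from these in its V4 levels. It stood at 226, 359 and 150.4 CPM in WT V4, 123, 59.2 and 64.5 CPM in green and 119, 71.4 and 35.1 CPM in white, so that every zb10 V4 library was below every WT V4 library. In V9 it stood at 4104, 4482 and 3973 CPM in WT and 4803, 4726 and 4448 CPM in zb10, where the genotypes overlapped. Its log2 fold change from green to V9 was 5.75 (SE 0.54, adjusted p 2.18e-05) by edgeR.

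The smallest changes with stage in zb10 were clear of the spread between libraries. Zm00001d048592 stood at 13.1, 7.38 and 14.5 CPM in green and 32.9, 98.2 and 29.8 CPM in V9, where replicate 2 stood well above the others. Its log2 fold change was 2.16 (SE 0.47, adjusted p 0.00441) by edgeR. Zm00001d005421, Zm00001d039194 and Zm00001d033091 changed by 2.16, 2.15 and 2.18 on the log2 scale, each with no overlap between V9 and green. The calls of a pair of members were sensitive to single settings. Zm00001d039434, at 2.83, 0 and 1.09 CPM in green and 19.7, 24.9 and 22.9 CPM in V9, lost its call in 4 of 13 alternatives (edgeR or DESeq2 adjusted p 0.0506 to 0.199). Zm00001d022035 lost its call in 1 (adjusted p 0.0503).

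Applied to the zb10 libraries with the same formula, V9 over green, the rule placed 95 of the 150 members (63.3%) among its own first 150 IDs, 144 among the first 500 and 148 among the first 1000. The median member ranked 97.5, and the lowest placed was Zm00001d048592 at 1340. Set over the white section in place of green, the same formula placed 82 members (54.7%) in the first 150 and 134 in the first 1000, with Zm00001d052194 placed at 48925. These ranks are a description, since WT and zb10 share the leaf stages compared.

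**Figure D2:**
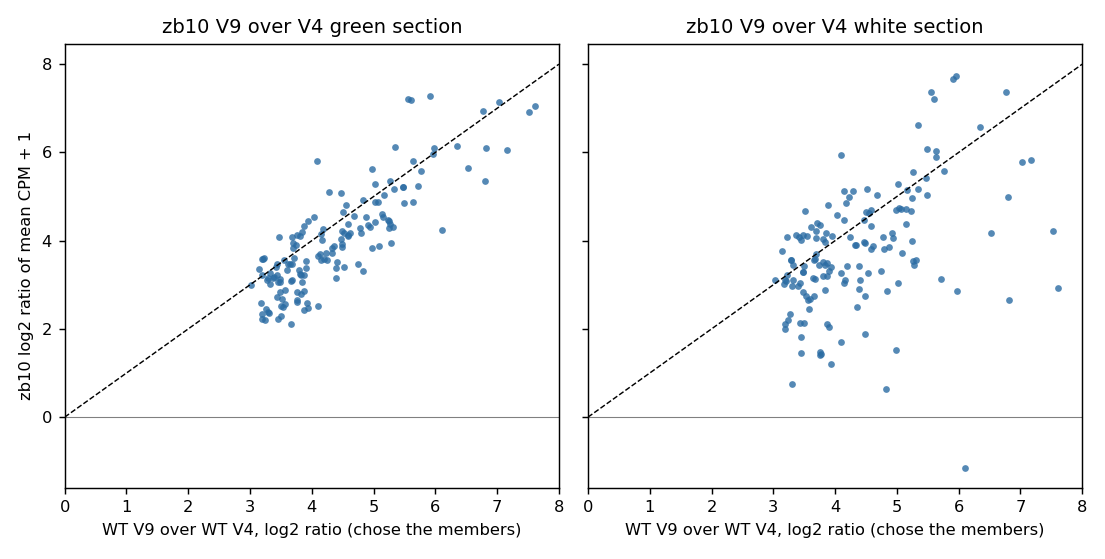
Log2 ratio of mean CPM + 1 between V9 and V4 for each of the 150 members, with WT on the x axis (the values that chose the members) and zb10 on the y axis, over green in one panel and over white in the other; the dashed line marks equal ratios. Over green all 150 points lie above 0 (2.11 to 7.27), and over white all but Zm00001d052194, at -1.14, do.

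Set against the white section, 148 of 150 members were higher in zb10 V9 (24.2% of IDs called higher), 1 was lower (26.4% called lower) and 1 was not called (edgeR). This fit held V9 too, so members that passed the low-count filter only through V9 had to be higher. On the V4 sections alone 129 of 150 would have passed it. The median log2 fold change was 4.37 (-0.02 over all IDs), and V9 lay above white without overlap in 146 members (20.8% of IDs) and below it in 1 (26.0% of IDs). The lower member was Zm00001d052194, with a log2 fold change of -1.05 (SE 0.38, adjusted p 0.0387) by edgeR, a call that was lost without white replicate 2 or 3 or V9 replicate 2 or 3 (adjusted p 0.0653 to 0.0974). The member not called was Zm00001d046471, with a log2 fold change of 0.76 (SE 0.42, adjusted p 0.157). Both stood high in white, as described next.

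The white and green sections come from the same kind of leaf, so their comparison asks how members low at V4 stood where the zb10 leaf was bleached. In edgeR, 24 members (16.0%) were higher in white, against 9.42% of IDs, and 23 (15.3%) were lower, against 7.11% of IDs. The other 103 were not called. All entered a fit that held V9 as well, through which a member could pass the low-count filter; on the V4 sections alone 23 of the 24 and 21 of the 23 would have passed, the exceptions being Zm00001d041726, Zm00001d022088 and Zm00001d038725. The median log2 fold change over members was -0.06, beside -0.03 over all IDs. White lay above green without overlap in 34 members (20.7% of IDs) and below in 27 (9.0% of IDs). Leaving out 1 library at a time left 17 to 22 members higher and 17 to 25 lower. Calls over all IDs also fell in these fits, to 1582 to 1821 higher and 1186 to 1539 lower. Of the 47 member calls, 29 held in every alternative that tested the member. Scaling by library size alone shifted the median of all IDs to 0.12 and gave 3382 IDs higher and 1048 lower in place of 2577 and 1944; members were then 31 higher and 21 lower.

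The most raised member in white was Zm00001d052194. It stood at 7.72, 10.6 and 9.35 CPM in WT V4, 14.8, 24.6 and 39.5 CPM in green and 847, 1108 and 1452 CPM in white. All white libraries lay far above all others of V4, with a log2 fold change over green of 5.28 (SE 0.45, adjusted p 0.000107) by edgeR, and the call held in every alternative. In V9 it stood at 1081, 272 and 756 CPM in WT and 682, 267 and 591 CPM in zb10. Every white library thus lay above every zb10 V9 library. It held 0.0847%, 0.111% and 0.145% of the counts of the white libraries. Without it the members' share of counts was 0.335%, 0.325% and 0.390% in white and 0.304%, 0.281% and 0.293% in green.

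Zm00001d046471 stood at 0.296, 1.24 and 1.58 CPM in green, 20.1, 33.2 and 62.9 CPM in white and 64.5, 37.5 and 79.5 CPM in V9. White lay wholly above green, with a log2 fold change of 5.01 (SE 0.54, adjusted p 0.000392) by edgeR, and overlapped V9. Zm00001d024903 stood at 1.22, 1.75 and 2.52 CPM in green and 10.3, 39.0 and 97.9 CPM in white, a log2 fold change of 4.52 (SE 0.77, adjusted p 0.00383). Its white libraries did not overlap green but differed widely among themselves, with replicate 3 the highest and replicate 1 the lowest. Zm00001d041726 was called higher (log2 fold change 4.36 (SE 1.30, adjusted p 0.0454) by edgeR) on values of 0.132, 0 and 0 CPM in green and 1.41, 0 and 1.56 CPM in white, where the groups overlapped. It passed the filter only through V9, and it lost the call in 6 of 12 alternatives testing it (adjusted p 0.0821 to 0.135).

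Among the other members higher in white, Zm00001d039566, Zm00001d002584, Zm00001d012420, Zm00001d047548 and Zm00001d038806 had log2 fold changes of 4.31, 3.21, 3.17, 3.04 and 3.01; they were chosen for mention after their values were seen. Zm00001d012420 may serve as an example, at 7.08, 8.99 and 13.1 CPM in green and 34.6, 83.6 and 183 CPM in white. Its white libraries all exceeded green, and the third was again the highest. Zm00001d042922, with a log2 fold change of 1.80 (SE 0.52, adjusted p 0.0406) by edgeR, lost its call in 6 of 14 alternatives, a replicate block among them (adjusted p 0.0591 to 0.147). White replicate 3, the library that stood apart, was the highest of the white libraries in 20 of the 24 members higher in white (83.3%). It was so in 73.6% of all IDs higher in white. Without this library 18 members were higher and 20 lower, beside 1750 and 1507 of 28177 IDs.

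The members lower in white were led by Zm00001d051459. It stood at 0.670, 0.817 and 0.876 CPM in WT V4 and 1.12, 1.36 and 0.573 CPM in green, and had 0 counts in all 3 white libraries. Against a floor of 3 counts over the white group it was at least 32.0-fold lower in white (edgeR adjusted p 0.00207). In V9 it stood at 69.0, 40.2 and 66.0 CPM in zb10. Zm00001d038725 had 27 counts in green and 2 in white, a ratio of 12.7 with a 95% counting interval of 3.19 to 110.2 (edgeR adjusted p 0.00508), and was tested only because V9 carried it past the filter.

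Zm00001d044723 was the clearest fall at a higher level. It stood at 18.2, 16.4 and 16.7 CPM in WT V4, 24.8, 28.3 and 27.1 CPM in green and 4.38, 8.47 and 4.99 CPM in white. White lay below both other V4 groups, with a log2 fold change against green of -2.31 (SE 0.24, adjusted p 0.000321) by edgeR, and the call held in every alternative. Zm00001d022088 was lower by -2.56 (SE 0.60, adjusted p 0.0179) on values under 1 CPM. It too passed the filter only through V9, and it lost the call in 3 of 12 alternatives testing it (adjusted p 0.0560 to 0.0856).

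Read against the zb10 V9 level, the classes differed in where white stood. In the 24 members higher in white, white stood at 1.49% to 221.3% of the zb10 V9 mean, with a median of 23.7%, while green stood at a median of 4.77%. In the 23 lower members white stood at a median of 4.19% and green at 9.44%. In the 103 not called, the medians were 4.53% and 4.02%. The rise in white thus reached the V9 level in Zm00001d052194 and fell short of it in most members. These classes were made from the white and green libraries, so the percentages describe and do not test them.

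**Figure D3:**
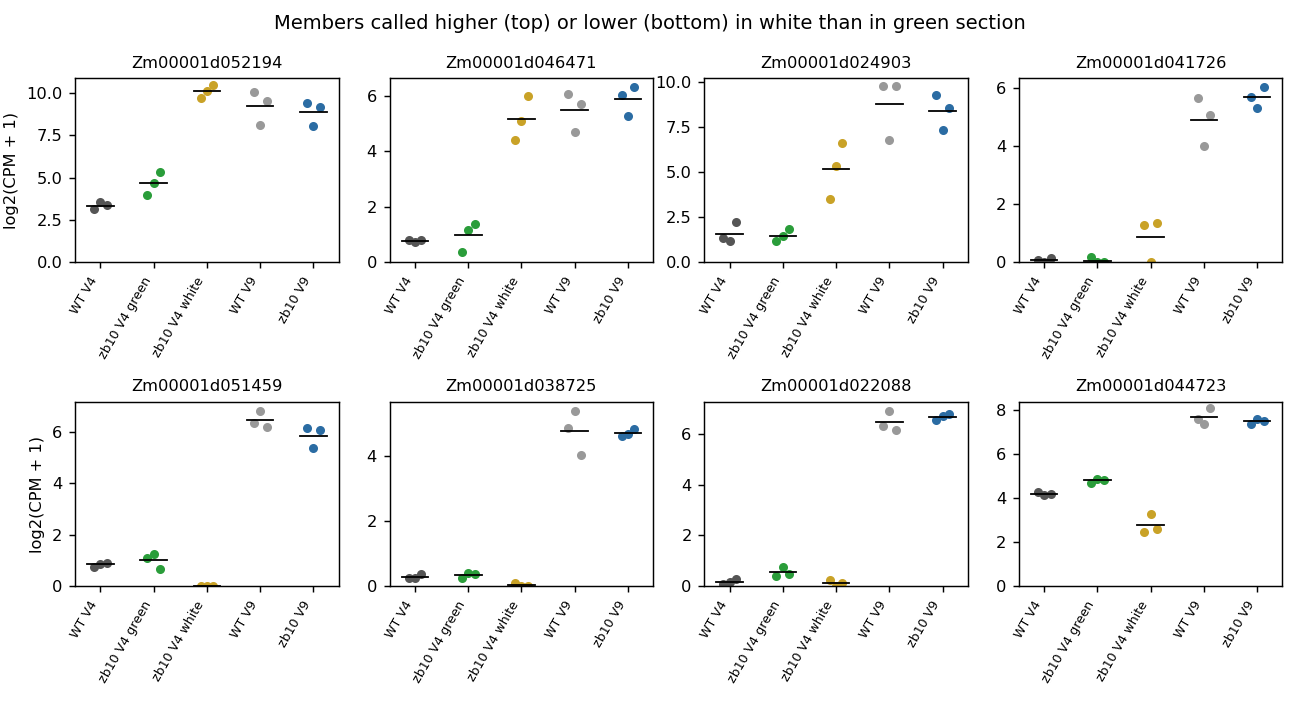
Level as log2(CPM + 1) in the 3 libraries of each leaf group for the 4 members with the largest log2 fold changes called higher in white than in green (top) and the 4 called lower (bottom); each point is a library. Zm00001d052194 reached 847 to 1452 CPM in white against 14.8 to 39.5 CPM in green, and Zm00001d051459 was at 0 in all 3 white libraries.

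The 24 members higher in white also shared a pattern in V9 leaf that their choice did not use in zb10. Replicate 2 was the lowest of 3 in WT V9 in 20 of them (83.3%), in zb10 V9 in 18 (75.0%) and in both groups in 17 (70.8%). Over all IDs tested it was the lowest in 51.4% in WT V9 and in 38.8% in zb10 V9, and the WT V9 values are those the rule used. In the 23 members lower in white it was lowest in both groups in 2 (8.70%), in the 103 not called in 18 (17.5%), and over all IDs tested in 22.1%. The median log2 ratio of replicate 2 to the mean of the other replicates was -1.32 in WT and -0.67 in zb10. Zm00001d024903 is an example, at 857, 108 and 858 CPM in WT V9 and 606, 157 and 368 CPM in zb10 V9. The labels give no batch for replicate 2, the pattern was noticed after the values were seen, and it was not tested.

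**Figure D4:**
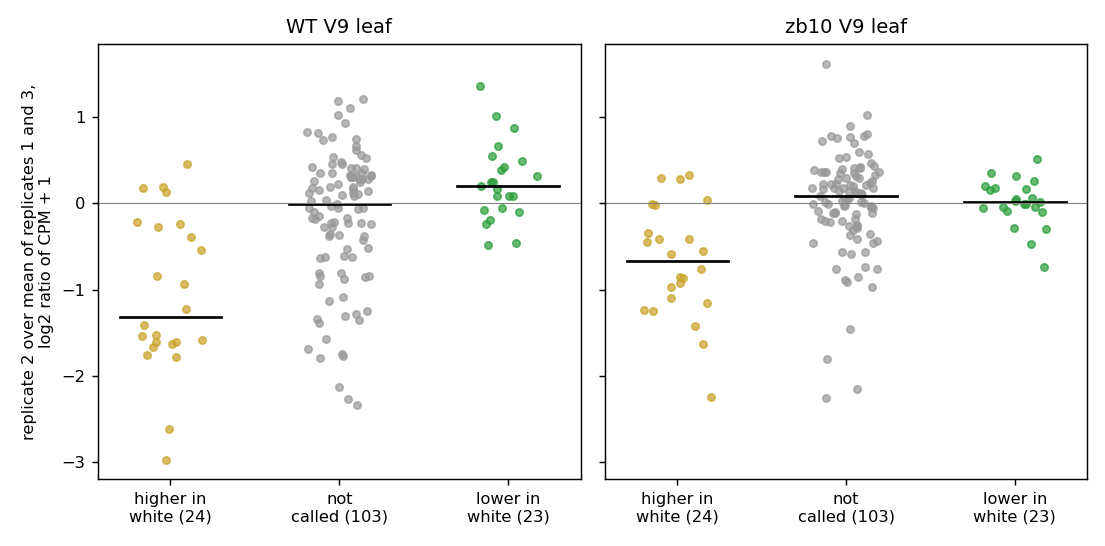
Log2 ratio of V9 replicate 2 to the mean of replicates 1 and 3 (CPM + 1) for members called higher in white, not called and called lower, in WT and in zb10 V9 leaf; each point is a member and each black bar a median. The 24 members higher in white lie mostly below 0, with medians of -1.32 in WT and -0.67 in zb10.

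In endosperm the question was whether the members were present outside leaf and whether they differed with the mutation. They held 0.493% ± 0.0799 (SD, n = 3) of counts in WT endosperm and 0.396% ± 0.0203 (SD, n = 3) in zb10. Of the 150, 28 stood at 10 CPM or more in every endosperm library, 61 at 1 CPM or more in every one, and 55 below 1 CPM in all 6. Most of the endosperm counts came from few members: Zm00001d002325, Zm00001d023376, Zm00001d012420 and Zm00001d020170 together held 79.2% to 81.2% of the members' counts in WT and 76.0% to 80.2% in zb10.

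Compared with zb10 V9 leaf, 146 members were lower in zb10 endosperm (38.7% of the 28308 IDs tested called lower), 1 was higher (36.4% called higher) and 3 were not called (edgeR). The median log2 fold change was -6.31, beside -0.05 over all IDs, and endosperm lay below V9 without overlap in 148 members (36.8% of IDs). Members are high in V9 by choice, and only 104 of 150 passed the filter on the 6 endosperm libraries, so the others entered this comparison through V9 and had to be lower; the count is a description of where the members stood. The higher member was Zm00001d002325, at 1132, 931 and 1132 CPM in zb10 V9 and 1995, 1509.9 and 1464 CPM in zb10 endosperm. Its groups did not overlap (1 member above, 27.5% of IDs), and its log2 fold change was 0.94 (SE 0.24, adjusted p 0.00708) by edgeR. With library size alone as scaling it was 0.64, where the median of all IDs moved to -0.35. In V4 leaf the same member stood at 85.7, 107 and 109 CPM in green and 53.8, 59.4 and 72.9 CPM in white, a log2 fold change of -0.85 (SE 0.15, adjusted p 0.00472) by edgeR.

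The members not called were Zm00001d051459, Zm00001d045455 and Zm00001d048311, with log2 fold changes of -0.50, 0.46 and -1.76 and edgeR adjusted p of 0.0689, 0.183 and 0.0685. Zm00001d051459, absent from the white section, stood at 44.9, 30.9 and 43.0 CPM in WT endosperm and 38.2, 29.0 and 32.5 CPM in zb10 endosperm. Zm00001d023376 stood at 1794, 944 and 1526 CPM in WT and 1059.5, 1062 and 1250.3 CPM in zb10, with overlapping genotypes. Zm00001d012420 stood at 588, 309 and 234 CPM in WT and 225, 231 and 187 CPM in zb10, where 1 WT library stood above the rest and the zb10 libraries were all below the WT ones.

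Between genotypes, 0 of the 104 members tested in endosperm were called (edgeR adjusted p under 0.05), against 0.0197% of the 25366 IDs tested called higher and 0.0158% called lower. The other 46 members were not tested because their counts were too low. At an unadjusted p under 0.05 there were 15 of 104 members, beside 1470 of 25366 IDs. Log2 fold changes ran from -1.77 to 3.03 (Zm00001d012488), with a median of -0.11. The zb10 libraries lay below WT without overlap in 15 members (4.38% of IDs) and above in 4 (4.43% of IDs). The lowest p belonged to Zea_mays_newGene_19418, at 6.83, 8.32 and 6.10 CPM in WT and 1.50, 2.45 and 2.31 CPM in zb10. Its genotypes did not overlap, and its log2 fold change was -1.77 (SE 0.26, adjusted p 0.129) by edgeR; it was called lower by DESeq2 (adjusted p 6.98e-06), without the low-count filter (0.0299) and in a fit of all 21 libraries (0.00183). DESeq2 called 3 of the 120 members it tested lower and 0 higher, beside 51 of 30347 IDs lower and 64 higher. The others of the 3 were Zm00001d052194 (log2 fold change -1.04, adjusted p 0.00276, against 0.445 in edgeR) and Zm00001d028555.

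Leaf-abundant transcripts also varied among the endosperm libraries. The 100 IDs most abundant in V4 leaf had medians of 2.33, 0.314 and 2.38 CPM in the WT endosperm libraries and 2.15, 0.386 and 0.499 CPM in the zb10 ones. Zm00001d022630 stood at 2.67, 0 and 3.24 CPM in WT and 2.46, 0 and 0 CPM in zb10, and was above 0 in the 3 libraries where those medians were highest. The part of leaf RNA in these low values was not tested.

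**Figure D5:**
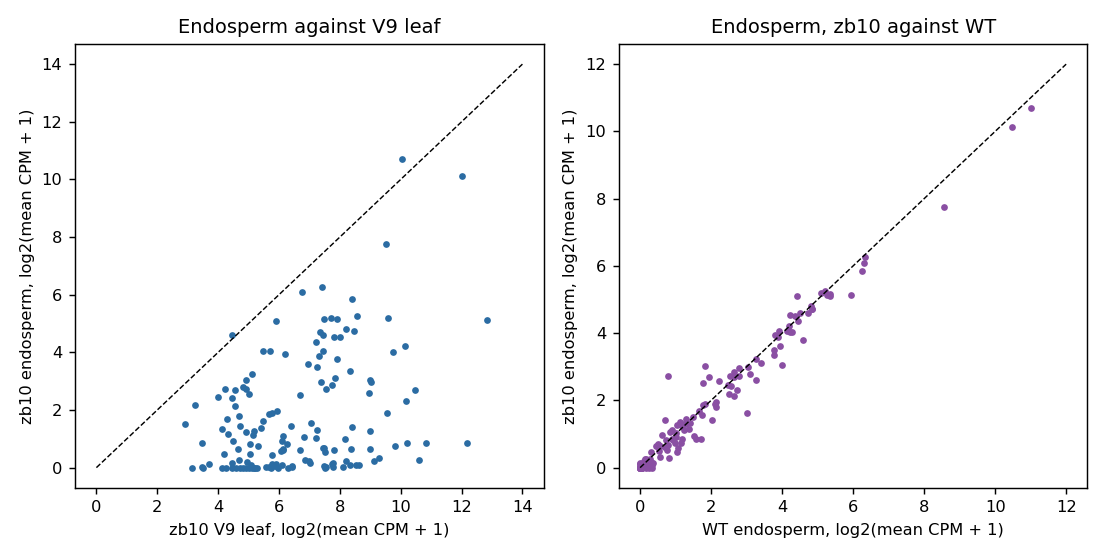
Mean level of each of the 150 members as log2(mean CPM + 1), zb10 endosperm against zb10 V9 leaf (left) and against WT endosperm (right); the dashed line marks equality. Most points lie near 0 on the endosperm axis and below the line at left. There 1 member was called higher (36.4% of IDs) and 146 lower (38.7% of IDs). At right most points lie near the line, with 0 of the 104 tested members called and 46 not tested.

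Ratios of zb10 to WT leaf rest on WT values that chose the members. Over the 150 members the log2 ratio of mean CPM + 1 in zb10 V9 to WT V9 ran from -1.08 to 0.64 with a median of -0.15, and 98 were below 0. The ratio of green to WT V4 ran from -1.56 to 1.44 with a median of 0.19, and that of white to WT V4 from -2.04 to 6.80 with a median of 0.25. Because the rule took members with low WT V4 and high WT V9 values, these ratios are biased by the choice and were not tested.

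Some members lay next to each other by ID number. With a distance of at most 5 numbers, 20 members fell into 9 runs, the longest being Zm00001d024207, Zm00001d024208, Zm00001d024210 and Zm00001d024211. The same count was not made for IDs in general, so no clustering is claimed. Zm00001d024211 stood at 0, 5.02 and 1.24 CPM in WT V4, 0, 0 and 1.23 CPM in green, 0, 0 and 0.248 CPM in white and 222, 218 and 211 CPM in zb10 V9. Zm00001d024208 stood at 0.322, 5.02 and 1.55 CPM in WT V4 and 182, 200.4 and 181 CPM in zb10 V9, and Zm00001d024210 at 0, 4.62 and 0.480 CPM and 176, 182 and 176 CPM. Replicate 2 was the highest WT V4 library in all 3, and the zb10 V9 libraries lay above every V4 library. Whether reads were split among near-identical copies is not known, so values within a run are uncertain and are not independent.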

How the data were processed

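Per the labels' protocols, a column kit was used for RNA and a SMARTer mRNA kit for sequencing libraries. The authors deposited raw counts per gene ID for 21 libraries in 1 table, and those counts were used as deposited. Aligner, counting tool, genome build, annotation and strand setting were not given in the sources used here. Column names say zb9 and 3L where the labels say zb10 and V4, and columns were assigned to the single labelled group that remained for each; 0 columns had no sample. Replicates are described as biological in the series design, and p-values measure the spread between these libraries. No pair of replicates agreed within sampling noise (chi-square per ID at least 18.8).

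CPM in the text were divided by library totals without further scaling. Tests were run in edgeR 4.0.16 under R 4.3.3 with its quasi-likelihood F-test and TMM scaling. The low-count filter was filterByExpr (count of at least 10, total of at least 15). P-values were adjusted by Benjamini-Hochberg over every ID tested, with calls at adjusted p under 0.05. The 9 zb10 leaf libraries were fitted together, endosperm genotypes apart, and zb10 endosperm with zb10 V9; each standard error was derived from the fold change and its F statistic. Each fit was also run on counts simulated with the spread of these data, for a single comparison per fit. White against green and V9 against white were not simulated, and no result here rests on these runs. The depth of 28237880 to 123050963 counts per library sets the precision; intervals (95%) and floors (3 counts over a group) take in counting error alone, since the reads carry no molecular identifiers and may repeat a molecule.

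Members, lists and tests were chosen with earlier results of these data known. The text names the members of highest rule value, of highest level in zb10 V9 and in endosperm, of largest change between white and green in each direction, of smallest change with stage in zb10, of lowest p between endosperm genotypes, and those at the threshold; others were chosen after their values were seen. Pathway and marker lists needed gene symbols and were not used, as 0 of 50142 IDs matched the table of the maize B73 reference. Alternatives were DESeq2 1.42.0, other scalings, no filter, a replicate block, the libraries in the fit, leaving out each library and changes to the rule.

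Same-numbered white and green libraries deviated together from their group means (correlations across IDs of 0.221, 0.199 and 0.446). Across numbers the correlations ran from -0.325 to 0.137, the highest being white 2 with green 1. The numbers were taken to pair these libraries, but the main test of white against green did not use the pairing. The pairing comes from these values and not from the labels.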

Additional observations from a re-analysis of the deposited data

How the results depend on the processing

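Counts of members called stayed within 1.5 times of those reported in the alternatives run, with these exceptions. The member lower in zb10 V9 than in white ranged from 0 to 1 over the fits that left out 1 library. In endosperm, 0 members lower in zb10 became 3 with DESeq2, where 51 of 30347 IDs were lower. The count became 1 without the low-count filter (13 of 37704 IDs) and 1 in a fit of all 21 libraries (6 of 32302 IDs). The member higher in endosperm than in V9 ranged from 1 to 2, the second being Zm00001d045455 without zb10 V9 replicate 1. The causes were not tested. Leaving out 1 library gave 148 to 150 members higher in V9 than in green, beside 4540 to 5104 of all IDs. It gave 147 to 148 higher than in white, beside 5604 to 6137 IDs. In endosperm 145 to 147 members were lower than in V9, beside 10502 to 11030 IDs. Members that passed the filter only through V9 had their direction fixed, so these counts were stable in part by choice.

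With a replicate block, which the pairing of white and green allows, 22 members were higher and 24 lower in white. Over all IDs 2290 were higher and 1772 lower of 27361. Of the 47 member calls, 42 were kept. A fit of the white and green groups alone tested only 129 of the 150 members. With the block, chosen after seeing the data, 29 were higher and 26 lower, beside 3443 and 3011 of 25885 IDs. Without the block 25 were higher and 17 lower, beside 2891 and 2123 IDs. The numbers did not pair the other groups. There the block gave 150 members higher in V9 than in green (5607 of 27361 IDs). It gave 148 higher and 1 lower than in white (6417 and 6964 IDs). Between endosperm genotypes 0 members were called (0 IDs higher and 3 lower of 25366). In endosperm 148 were lower and 1 higher than in V9 (10410 and 9775 of 28308 IDs).

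Membership depended on the rule's settings. Of the 150 members, 137 were kept with 0.5 CPM added in the rule, 116 with 5 CPM, 115 with group means and 147 with TMM-scaled CPM. Leaving out 1 WT library kept 108 to 148, the lowest without WT V9 replicate 2. For single members named in the text, 2590 alternative values stayed on their side of the threshold, 37 calls were lost and 25 gained, and none changed sign as a called value. Depth limits members under 1 CPM at V4 or in endosperm, where 46 members could not be tested between genotypes.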

Other observations

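Among the members, those higher in the white section were also those more often present in endosperm. Of the 24, 11 stood at 10 CPM or more in every endosperm library, against 5 of the 23 lower in white and 12 of the 103 not called. Their median level over both endosperm groups was 13.2 CPM, against 0.832 and 0.788 CPM in the other classes. They also lay lower in zb10 V9 than in WT V9 more often, in 20 of 24 members with a median log2 ratio of -0.53. The lower class had 14 of 23 below WT with a median of -0.11, and those not called 64 of 103 with a median of -0.10. The classes were made after seeing the white and green values, the WT V9 libraries chose the members, and none of these differences was tested. The same shares were not taken over all IDs higher or lower in white. The differences therefore cannot be called particular to the members.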
